A study of Mus musculus with 6 samples.

Results

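The TAM receptors are 3 receptor tyrosine kinases, Mertk, Axl and Tyro3, and their bridging ligands are 2 secreted proteins, Gas6 and Pros1 (protein S). The ligands bind phosphatidylserine that is exposed on dying cells and on synaptic or membrane debris, and their other end binds a TAM receptor on a phagocyte, so that a ligand-coated particle is tethered and engulfed. In brain, Mertk is known for the clearance of apoptotic cells and synapses by microglia and astrocytes, Axl for its induction in reactive microglia around amyloid plaques, and Tyro3 for its place in neurons and in myelinating oligodendrocytes. Gas6 binds all 3 receptors, whereas Pros1 binds Tyro3 and Mertk. The 5 genes were taken by their symbols from the 32285 genes of the matrices, and each symbol matched 1 row.

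The data are droplet single-nucleus RNA counts from frozen cortex of mice aged 7.5 months, sorted for the absence of NeuN, a nuclear antigen of neurons. There were 3 groups of 2 libraries: 5xFAD-P522R, 5xFAD-M28L and 5xFAD. All mice carried the 5xFAD transgenes, a neuronally driven pair of mutant human amyloid precursor protein and presenilin 1 genes that gives amyloid plaques. P522R and M28L are variants of phospholipase C-γ2 (Plcg2), an enzyme downstream of microglial surface receptors, and mice without 5xFAD were not part of these samples. The labels call the libraries replicates 2 and 3, each was made to hold nuclei of male and female mice together, and the number of mice behind each is not given, so the spread between libraries may be partly technical.

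The 6 libraries held 9269 to 13783 barcodes and medians of 3842 to 4972 unique molecular identifiers (UMIs, 1 per captured RNA molecule) per barcode. Any 2 libraries shared at most 0.751% of the smaller one's barcodes. After filters 59541 nuclei were used, and 12 cell types were named from marker genes that include no TAM gene, 10 of them with at least 20 nuclei in every library. The label of a NeuN-negative sort was not fully borne out, since 5188 nuclei carried neuronal markers. Names such as microglia below mean nuclei that carry the markers of that type.

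The library 5xFAD replicate 2 stood apart in microglia. Its 454 microglial nuclei with Xist RNA, which marks cells of female mice, were 95.8% homeostatic-like, against 28.3 to 36.6% in the Xist-positive microglia of the other 5 libraries. In its 524 microglial nuclei with Y-linked RNA that share was 50.6%. Its Xist-positive microglia also had the lowest median depth, 2641 UMIs, against 3396 to 3752 UMIs elsewhere. Results in microglia are therefore given with and without these nuclei.

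Mertk (ENSMUSG00000014361) lies on chromosome 2, 128698956 to 128802894, plus strand, of mouse build GRCm38. An antisense gene, Gm14011, and a small nucleolar RNA gene lie within it. Axl (ENSMUSG00000002602) lies on chromosome 7, 25757273 to 25788705, minus strand. Tyro3 (ENSMUSG00000027298) lies on chromosome 2, 119797733 to 119818104, plus strand. Gas6 (ENSMUSG00000031451) lies on chromosome 8, 13465374 to 13494490, minus strand, and its 3′ end overlaps that of Tmem255b on the other strand. Pros1 (ENSMUSG00000022912) lies on chromosome 16, 62854307 to 62929346, plus strand. Strand use in the counting is not given in the sources used here, so reads of Mertk and Gas6 cannot be told apart with certainty from those of their overlapping genes.

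The promoter windows of Mertk and Axl are shown because Axl was highest and Mertk lowest in the same microglial state, described below. Each runs from 250 bases before to 50 bases after the RefSeq start (GRCm38.p6), 5′ to 3′ on the gene's strand, with motif matches in capitals.
Mertk, chr2:128698665-128698964, plus strand: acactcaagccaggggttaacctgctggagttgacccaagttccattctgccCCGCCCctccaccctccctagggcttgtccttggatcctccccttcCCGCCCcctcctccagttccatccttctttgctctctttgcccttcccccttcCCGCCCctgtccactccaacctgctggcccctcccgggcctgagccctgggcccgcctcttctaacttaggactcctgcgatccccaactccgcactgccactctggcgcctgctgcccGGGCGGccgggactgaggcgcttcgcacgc
Axl, chr7:25788684-25788983, minus strand: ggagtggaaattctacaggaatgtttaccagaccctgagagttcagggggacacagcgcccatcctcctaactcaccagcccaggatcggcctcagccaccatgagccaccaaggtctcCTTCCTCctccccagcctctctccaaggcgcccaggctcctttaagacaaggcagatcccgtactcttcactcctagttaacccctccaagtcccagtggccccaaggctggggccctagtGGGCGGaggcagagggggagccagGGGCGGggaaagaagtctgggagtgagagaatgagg

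The capitals in the Mertk window are 4 GC boxes (GGGCGG on either strand), a motif held by 35.7% of the 32851 RefSeq promoter windows of this length. The Axl window holds 2 GC boxes and 1 match to the PU.1-like ETS core GAGGAAG, which 13.6% of all windows hold. Also searched on both strands were the interferon-response core AANNGAAAC (5.77% of windows), the gamma-activated site TTCNNNGAA (8.30%) and the AP-1 site TGANTCA (7.81%), and neither window holds these letters. Of the other members, Tyro3, Gas6 and Pros1 have 6, 4 and 5 GC boxes, and Pros1 has 1 gamma-activated site. A match in these windows is a description of the letters only.

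The receptors divided among the cell types. Mertk was highest in microglia and astrocytes, Axl in mural cells, border macrophages and microglia, and Tyro3 in oligodendrocytes, committed oligodendrocyte precursors and neurons. Levels are counts per 1000000 (CPM), the UMIs of the gene per 1000000 UMIs of all genes, summed over the nuclei of a type in each library, and are compared here between cell types for 1 gene at a time. They are descriptions with no test, as mean ± SD over 6 libraries unless said otherwise. In such sums, fewer expressing nuclei and less RNA per nucleus cannot be told apart.

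Mertk averaged 2966 ± 289 CPM in microglia, with 2657 and 2693 CPM in 5xFAD-P522R, 3242 and 3352 CPM in 5xFAD-M28L, and 2826 and 3024 CPM in 5xFAD. In astrocytes it averaged 1844 ± 323 CPM, with 1802 and 1621 CPM in 5xFAD-P522R, 1950 and 2397 CPM in 5xFAD-M28L, and 1454 and 1842 CPM in 5xFAD. The ranges of microglia and astrocytes did not overlap, and microglia were higher in 6 of 6 libraries. Border macrophages, the perivascular and meningeal macrophages, held 1314 ± 212 CPM, and their range overlapped that of astrocytes.

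Lower Mertk levels followed in pericytes or smooth muscle (351 ± 114 CPM), oligodendrocyte precursors (263 ± 89 CPM), endothelial cells (233 ± 42 CPM) and fibroblasts (103 ± 30 CPM), with overlapping ranges between neighbours except endothelial cells and fibroblasts. With called doublets kept, the fibroblast level was 198 CPM. Committed oligodendrocyte precursors (83.2 ± 17.3 CPM), neurons (40.8 ± 29.0 CPM) and oligodendrocytes (24.6 ± 10.1 CPM) were lowest. Microglia were 13.3% of the nuclei and gave 8.37% of all UMIs but 52.7% of the 166546 Mertk UMIs, and astrocytes gave 31.0%. After each nucleus was thinned to 1000 UMIs, 89.6% of microglia, 75.8% of astrocytes and 2.49% of oligodendrocytes had a Mertk UMI. The same shares without thinning were 98.8%, 97.6% and 8.65%, at median depths of 3464, 6684 and 3839 UMIs.

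The Mertk level in neurons moved with microglial RNA in those nuclei. The 14 microglial markers, summed, reached 0.792 to 3.41% of their microglial level in neurons, none of the 14 at 0 in every library. That percentage of microglial Mertk is 24.3 to 91.9 CPM, beside the 17.3 to 96.9 CPM measured in neurons, with both highest in 5xFAD-P522R replicate 3. In oligodendrocytes the measured Mertk level, 11.2 to 40.5 CPM, was below the value found in that way, 38.996 to 56.6 CPM, in all 6 libraries. In oligodendrocyte precursors it was above it, 170 to 419 CPM beside 31.3 to 42.7 CPM.

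Axl was highest in pericytes or smooth muscle (136 ± 39 CPM), border macrophages (104 ± 15 CPM) and microglia (103 ± 33 CPM), and the ranges of neighbours in this order overlapped. The border macrophage level depended on the clustering, at 56.9 CPM when the members were allowed to shape the clusters and 67.4 CPM at a finer split of the types. Astrocytes (55.0 ± 6.0 CPM), fibroblasts (52.9 ± 10.9 CPM) and endothelial cells (38.5 ± 9.5 CPM) followed, also with overlapping ranges. Oligodendrocyte precursors had 16.7 ± 1.8 CPM, below the whole range of endothelial cells. Committed oligodendrocyte precursors (8.23 ± 6.16 CPM), neurons (1.78 ± 1.05 CPM) and oligodendrocytes (1.54 ± 0.36 CPM) were lowest. Of the 6877 Axl UMIs, 44.7% came from microglia and 23.2% from astrocytes, while pericytes or smooth muscle, 0.836% of the nuclei, gave 3.66%.

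Tyro3 was arranged differently. Oligodendrocytes held 88.4 ± 8.1 CPM, between 81.2 and 98.7 CPM, above the range of every other named type. Committed oligodendrocyte precursors (40.02 ± 4.07 CPM) and neurons (38.6 ± 6.1 CPM) followed with overlapping ranges, and a cluster of 4341 nuclei with oligodendrocyte markers that was left unnamed had 66.8 ± 6.2 CPM. The other types overlapped their neighbours and were all lower, with pericytes or smooth muscle at 18.2 ± 9.1 CPM, border macrophages at 12.5 ± 9.7 CPM and oligodendrocyte precursors at 11.95 ± 1.33 CPM. Fibroblasts had 8.87 ± 3.01 CPM, astrocytes 8.64 ± 3.60 CPM, endothelial cells 5.31 ± 4.29 CPM and microglia 4.58 ± 1.45 CPM. With called doublets kept, Tyro3 in microglia was 14.5 CPM, so its place at the low end depended on their removal. Oligodendrocytes gave 62.8% of the 16447 Tyro3 UMIs, and microglia held 129 UMIs in all.

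Among the ligands, Gas6 was highest in border macrophages (218 ± 63 CPM, lowest 107 and highest 280 CPM). Endothelial cells (87.4 ± 26.2 CPM) were next, and the ranges of the 2 types overlapped. Microglia (46.6 ± 11.1 CPM) and astrocytes (43.9 ± 9.6 CPM) overlapped. Neurons (28.02 ± 3.27 CPM), fibroblasts (25.2 ± 7.7 CPM) and oligodendrocyte precursors (24.4 ± 5.4 CPM) overlapped one another. Pericytes or smooth muscle (10.9 ± 8.0 CPM), committed oligodendrocyte precursors (9.73 ± 2.66 CPM) and oligodendrocytes (4.36 ± 0.58 CPM) were lowest. Of the 7604 Gas6 UMIs, neurons gave 29.7%, with 22.8% of all UMIs, and border macrophages gave 4.59%, with 0.610% of the nuclei.

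Pros1 was highest in microglia, 335 ± 15 CPM, between 313 and 359 CPM. Border macrophages (125 ± 31 CPM) and endothelial cells (98.4 ± 17.3 CPM) were next, with ranges that overlapped each other and not that of microglia. Microglia gave 54.3% of the 18104 Pros1 UMIs. Pericytes or smooth muscle (64.5 ± 26.1 CPM), fibroblasts (56.3 ± 16.1 CPM), astrocytes (34.1 ± 5.8 CPM) and oligodendrocyte precursors (33.3 ± 2.0 CPM) followed. Oligodendrocytes (21.1 ± 3.6 CPM), neurons (16.4 ± 7.1 CPM) and committed oligodendrocyte precursors (13.9 ± 3.9 CPM) were lowest.

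**Figure D1:**
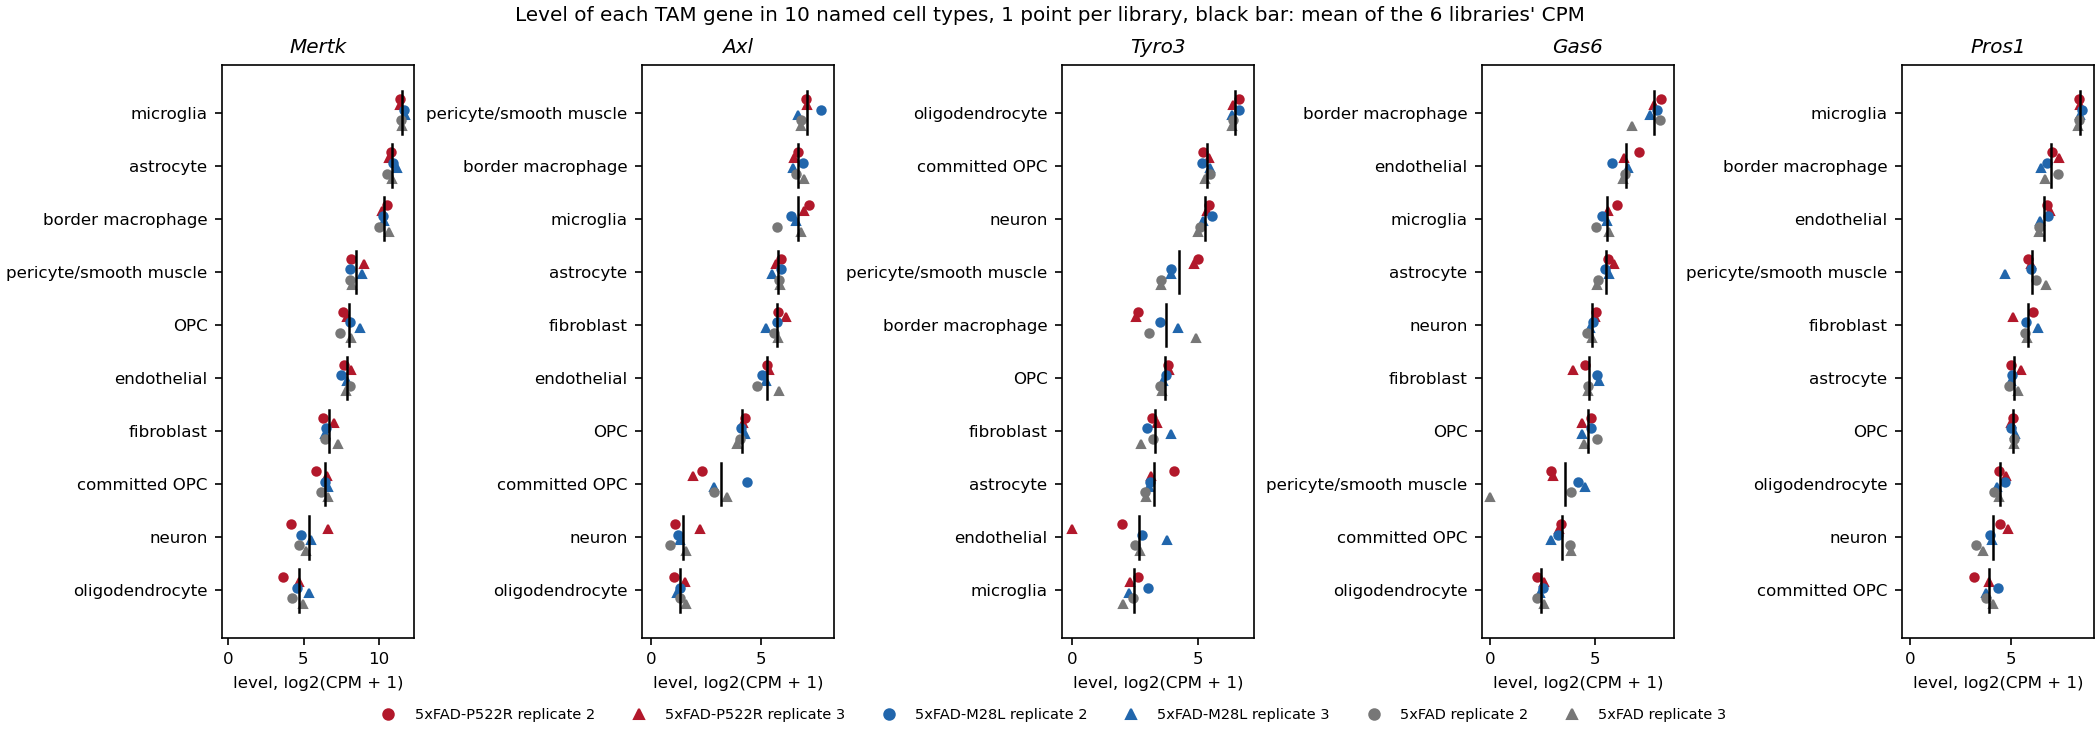
Levels of the 5 genes, as log2(CPM + 1) on the horizontal axis, in 10 cell types ordered from highest to lowest mean, with 1 point per library (colour for the group, circle for replicate 2, triangle for replicate 3) and a black bar at the mean of the 6 CPM values. Mertk and Pros1 are highest in microglia, at means of 2966 and 335 CPM, and Tyro3 is highest in oligodendrocytes, at 88.4 CPM.

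Across the 10 types, the genes whose mean log2(CPM + 1) was most like that of Mertk, among 13761 genes, were Sat1, Pnp and Gna13 (Pearson r 0.92, 0.91 and 0.91). For Axl they were Fibp, Ttc28 and Tnfrsf1a (0.95, 0.94 and 0.94), and for Tyro3 Dusp26, Fam131b and Gm35438 (0.95, 0.94 and 0.93). Gas6 was most like Faap100, Crlf2 and B4galt5 (0.90, 0.90 and 0.89), and Pros1 most like AU020206, 4930599N23Rik and Rnaset2a (each 0.96). Between the receptors themselves r was 0.83 for Mertk with Axl, -0.76 for Mertk with Tyro3 and -0.81 for Axl with Tyro3. These values rest on 10 types from the same libraries and depths.

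Within microglia, Axl was low in the homeostatic-like state and high in the others, while Mertk was high throughout. Homeostatic-like nuclei carry P2ry12, Tmem119 and other genes of surveying microglia. The disease-associated-like state carries Apoe, Cst7, Lpl, Itgax and Spp1, the interferon-responsive-like state carries Ifit and Stat genes, and the activated-like state carries Ccl3, Ccl4 and Il1b. States came from clustering nuclei without the 5 members, so the comparison between states is again a description with no test.

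Axl had 229, 252, 225, 245, 149 and 181 CPM in the disease-associated-like state, against 19.5, 23.2, 19.6, 18.6, 12.6 and 20.2 CPM in the homeostatic-like state, for 5xFAD-P522R, 5xFAD-M28L and 5xFAD replicates 2 and 3 in that order. The lowest value of the first state was far above the highest of the second, and the ratio within a library was 8.97 to 13.2. The interferon-responsive-like state had 159 ± 17 CPM and the activated-like state 144 ± 30 CPM, against 18.9 ± 3.5 CPM in the homeostatic-like state. Those 2 states held 8.40 and 7.60 times the homeostatic-like level by their means and were higher in 6 of 6 libraries, with no overlap.

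Homeostatic-like nuclei were 42.3% of microglia but held 213 of the 3073 microglial Axl UMIs, or 6.93%. The disease-associated-like state was 10.1% of microglia with 25.1% of these UMIs, and the activated-like state 39.2% with 55.0%. At 1000 UMIs per nucleus, 17.6% of disease-associated-like, 13.8% of interferon-responsive-like and 12.3% of activated-like nuclei had an Axl UMI, against 1.68% of homeostatic-like nuclei. The unthinned shares were 50.3%, 31.7%, 34.4% and 5.20%. In oligodendrocytes, a type that should lack Axl, the share was 0.226% thinned and 0.631% unthinned. The ratio of disease-associated-like to homeostatic-like Axl was 19.3 when microglia were split more finely and 28.6 when the members were allowed to shape the clusters.

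Mertk was lower in the disease-associated-like state, 2416 ± 288 CPM, than in the homeostatic-like state, 3099 ± 214 CPM. The library values were 1922, 2243, 2583, 2688, 2609 and 2450 CPM, against 3014, 2922, 3258, 3306, 2804 and 3290 CPM, in the same order of libraries. The disease-associated-like state was lower in 6 of 6 libraries, at 0.638 to 0.930 times the homeostatic-like level, and the ranges did not overlap. The gap was narrower, 0.887 and 0.890 times with overlapping ranges, at the finer split and with the members allowed to shape the clusters. The interferon-responsive-like (3034 ± 301 CPM) and activated-like states (3033 ± 295 CPM) overlapped the homeostatic-like one.

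The ligands also divided in the disease-associated-like state, with Gas6 higher and Pros1 lower than in the homeostatic-like state. Gas6 had 72.6 ± 21.4 CPM in the disease-associated-like state, against 35.3 ± 7.9 CPM in the homeostatic-like state. It was higher in 6 of 6 libraries, and the ranges stood apart by a narrow margin, from 46.9 CPM upward against 44.3 CPM at most. Those nearest values rest on 51 and 50 UMIs. The disease-associated-like values of 5xFAD-M28L rest on 13 and 18 UMIs, and that of 5xFAD replicate 2 on 11 UMIs. The mean ratio of Gas6, 2.05, became 1.69 without overlap at the finer split. It became 1.56 with overlapping ranges when the members were allowed to shape the clusters. Unlike Axl, Gas6 was not higher in the interferon-responsive-like state by its mean (35.0 ± 10.7 CPM). In the activated-like state it had 53.5 ± 13.6 CPM, higher than in the homeostatic-like state in 6 of 6 libraries but with overlapping ranges. Pros1 had 273 ± 35 CPM in the disease-associated-like state, against 346 ± 19 CPM in the homeostatic-like state, lower in 6 of 6 libraries with no overlap. For Pros1 the mean ratio, 0.788, became 0.890 and 0.925 with overlapping ranges under the same alternatives. Leaving out the Xist-positive nuclei of 5xFAD replicate 2 gave ratios of 11.02 for Axl, 0.769 for Mertk, 2.11 for Gas6 and 0.786 for Pros1.

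**Figure D2:**
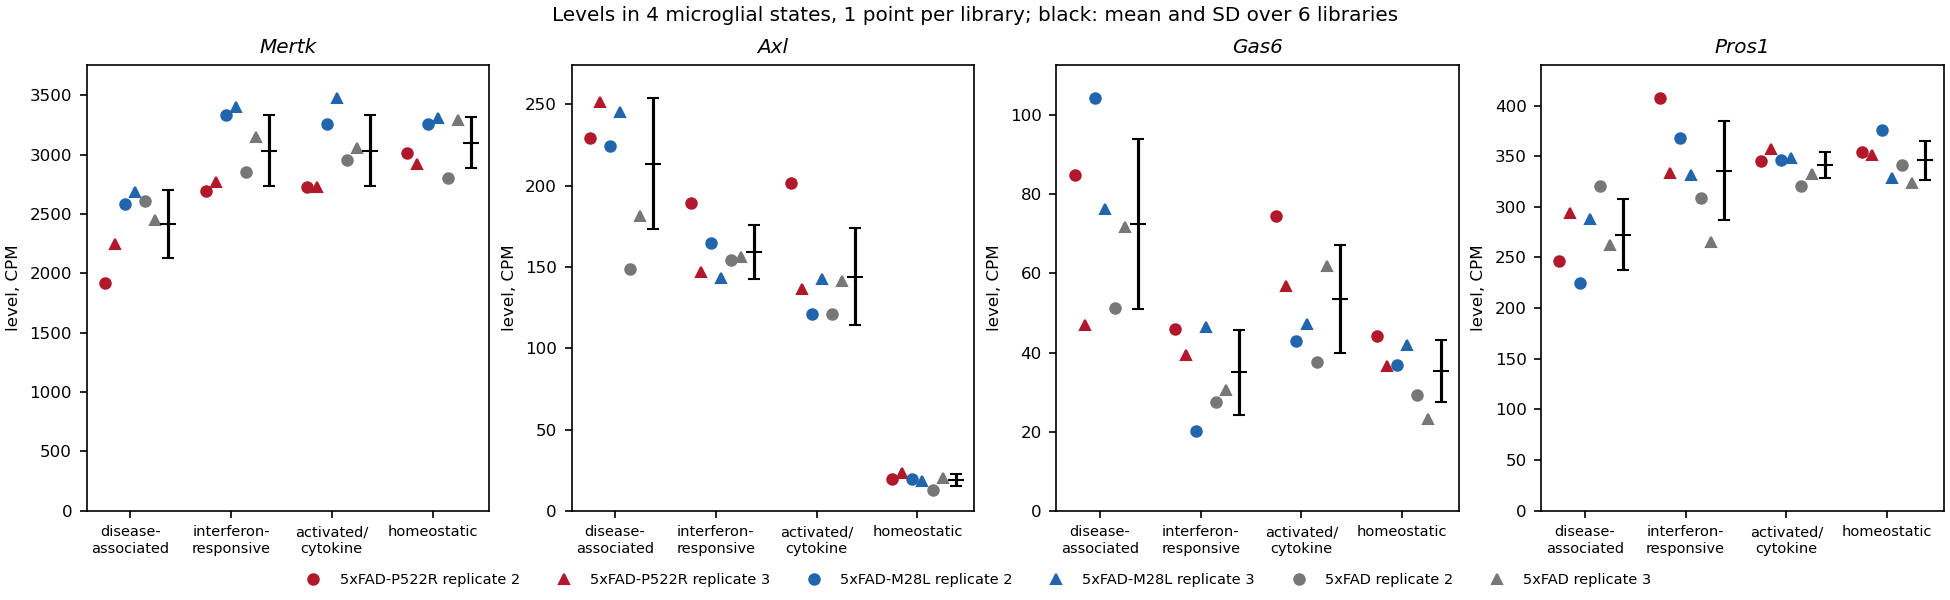
Levels of 4 members in CPM (vertical axis, from 0) in 4 microglial states, 1 point per library, coloured by group, with the mean and SD over 6 libraries in black. All 6 libraries have Axl at 23.2 CPM or less in the homeostatic-like state and at 121 CPM or more in the other 3 states, and Mertk and Pros1 are lowest in the disease-associated-like state by their means.

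The first comparison between groups asks whether the TAM genes in microglia differed between the Plcg2 variants and 5xFAD. No member passed the test in microglia in any of the 3 contrasts (edgeR quasi-likelihood test, Benjamini-Hochberg adjusted over 13630 genes). All 5 members were tested. The share of all genes called was 0.00734% for P522R against M28L, 0.00734% for M28L against 5xFAD and 0.022% for P522R against 5xFAD, so few genes of any kind passed. At an unadjusted p under 0.05 there was 1 of 5 members in each contrast, beside 8.38%, 6.39% and 9.43% of all genes, and DESeq2 called 0 of 5 in each.

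Mertk stood at 2657 and 2693 CPM in 5xFAD-P522R, 3242 and 3352 CPM in 5xFAD-M28L, and 2826 and 3024 CPM in 5xFAD. The 3 groups did not overlap, with 5xFAD-P522R lowest and 5xFAD-M28L highest. On the log2 scale the difference was -0.34 (SE 0.080, adjusted p = 0.290) for P522R against M28L, 0.20 (SE 0.080, adjusted p = 0.773) for M28L against 5xFAD and -0.14 (SE 0.080, adjusted p = 0.6003) for P522R against 5xFAD. Both 5xFAD-P522R libraries were below both 5xFAD-M28L libraries in all 4 states, with 1922 and 2243 CPM against 2583 and 2688 CPM in the disease-associated-like state. In the activated-like state they had 2727 and 2729 CPM, against 3256 and 3474 CPM.

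RNA of astrocytes, the other Mertk-rich type, was lower in the 5xFAD-P522R microglia. The 13 astrocyte markers there summed to 520 and 523 CPM in 5xFAD-P522R, 795 and 850 CPM in 5xFAD-M28L, and 761 and 769 CPM in 5xFAD, with none at 0 in every library and 0 of 13 higher in P522R than in M28L. This was 1.81 to 2.75% of the astrocyte level. That percentage of astrocyte Mertk is 31.9 and 32.7 CPM in 5xFAD-P522R and 49.6 and 65.9 CPM in 5xFAD-M28L, beside group means of 2675 and 3297 CPM for Mertk in microglia.

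The calls on Mertk and Axl for P522R against M28L depended on the filter and on the 5xFAD libraries that share the fit. Without a filter on low counts, all 6 libraries gave Mertk an adjusted p of 0.00104 and Axl one of 0.0058, and 1.89% of 22114 genes passed (edgeR). With only the 4 libraries of P522R and M28L in the fit, Mertk (log2 -0.34, adjusted p = 0.0085) and Axl (0.53, adjusted p = 0.0256) passed, and 315 genes did in all, against 1 with all 6 libraries and the filter. Without 5xFAD replicate 2 they passed with adjusted p = 0.0044 and 0.0273 (323 genes), and without 5xFAD replicate 3 with adjusted p = 0.0042 and 0.0226 (326 genes). Leaving out any library of the other groups, with the filter, gave no call among the members. With the Xist-positive nuclei of 5xFAD replicate 2 left out, 101 genes passed in this contrast, with adjusted p = 0.0619 for Mertk and 0.252 for Axl.

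Axl in microglia had 146 and 125 CPM in 5xFAD-P522R, 83.7 and 97.6 CPM in 5xFAD-M28L, and 52.6 and 114 CPM in 5xFAD. Both 5xFAD-P522R libraries were above all others, and the 5xFAD libraries lay on either side of the 5xFAD-M28L ones. On the log2 scale the difference was 0.53 (SE 0.278, adjusted p = 0.672) for P522R against M28L, 0.12 (SE 0.280, adjusted p = 0.949) for M28L against 5xFAD and 0.65 (SE 0.277, adjusted p = 0.513) for P522R against 5xFAD. Without a filter on low counts, P522R against 5xFAD had an adjusted p of 0.00013, and 2.37% of genes passed. Without 5xFAD replicate 3, P522R against 5xFAD was 1.35 and M28L against 5xFAD 0.81. That fit leaves 5xFAD replicate 2, the library that stood apart, as the only one of its group. Without 5xFAD replicate 2, M28L against 5xFAD was -0.30.

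The microglial Axl level of a library moved with its mix of states. The disease-associated-like share was 18.7 and 17.0% in 5xFAD-P522R, 2.29 and 3.65% in 5xFAD-M28L, and 5.07 and 14.4% in 5xFAD. The homeostatic-like share was 33.1 and 32.4% in 5xFAD-P522R, 46.7 and 44.6% in 5xFAD-M28L, and 68.9 and 30.2% in 5xFAD. When every library was given the same mix of the 4 states, the log2 difference of group means in Axl became 0.22 in place of 0.58 for P522R against M28L, and 0.37 in place of 0.80 for P522R against 5xFAD. For Mertk the same step gave -0.24 in place of -0.30 for P522R against M28L. These are values with no test. Summed endothelial markers in microglia were also highest in 5xFAD-P522R, at 296 and 219 CPM. They had 79.4 and 87.6 CPM in 5xFAD-M28L, and 124 and 195 CPM in 5xFAD. Of the 12 markers, none at 0 in every library, 4 were higher in P522R than in M28L and 2 higher in P522R than in 5xFAD. In the disease-associated-like state they summed to 905 and 550 CPM in 5xFAD-P522R, against 225 and 356 CPM in 5xFAD-M28L. There 8 of the 12 were higher in P522R than in M28L, and 5 higher in P522R than in 5xFAD. In the homeostatic-like state the sums were 76.2 and 54.0 CPM against 66.1 and 63.2 CPM, and these numbers were 5 and 2. Axl in endothelial cells themselves was 38.5 CPM, below its level in microglia in 6 of 6 libraries. The part of endothelial RNA in the Axl differences was not tested.

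Within the states the members were also not called. In the homeostatic-like state 4 members were tested, Tyro3 being too low, and 0 passed in each contrast, where 0.052% (P522R against M28L), 0.0173% (M28L against 5xFAD) and 0.0173% (P522R against 5xFAD) of genes passed. In the disease-associated-like state 0 of 4 passed, where 0.0401%, 0.0669% and 0.0134% of genes passed in the same order of contrasts. DESeq2 called 0 of 4 in each of these 6 fits, and 1 of 4 had an unadjusted p under 0.05 in each (edgeR). Of all genes, 662 to 1086 of 11530 had such a p in the homeostatic-like state over the 3 contrasts. In the disease-associated-like state 342 to 599 of 7475 genes did. Axl in the disease-associated-like state was singled out after its values were seen. It had 229 and 252 CPM in 5xFAD-P522R, 225 and 245 CPM in 5xFAD-M28L, and 149 and 181 CPM in 5xFAD. These values rest on 162 and 274 UMIs in 5xFAD-P522R, 28 and 58 UMIs in 5xFAD-M28L, and 32 and 217 UMIs in 5xFAD. Both 5xFAD libraries were lower than all 4 variant libraries, with log2 fold changes of 0.47 (SE 0.179, adjusted p = 0.998) for P522R and 0.46 (SE 0.225, adjusted p = 0.623) for M28L against 5xFAD.

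Gas6 in microglia had 64.9 and 47.8 CPM in 5xFAD-P522R, 39.3 and 46.3 CPM in 5xFAD-M28L, and 31.9 and 49.7 CPM in 5xFAD. The 5xFAD libraries spanned the 5xFAD-M28L ones, and on the log2 scale the difference was 0.34 (SE 0.219, adjusted p = 0.730) for P522R against M28L and 0.41 (SE 0.219, adjusted p = 0.575) for P522R against 5xFAD. Without 5xFAD replicate 3, which leaves only replicate 2 in that group, P522R against 5xFAD was 0.80. Pros1 had 331 and 341 CPM in 5xFAD-P522R, 359 and 336 CPM in 5xFAD-M28L, and 332 and 313 CPM in 5xFAD, with log2 fold changes of -0.09, 0.14 and 0.05 (adjusted p from 0.810 to 0.872) in the 3 contrasts. Tyro3 had 16 to 32 UMIs per library and log2 fold changes of -0.29, 0.62 and 0.33 with SEs of 0.402 to 0.423.

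**Figure D3:**
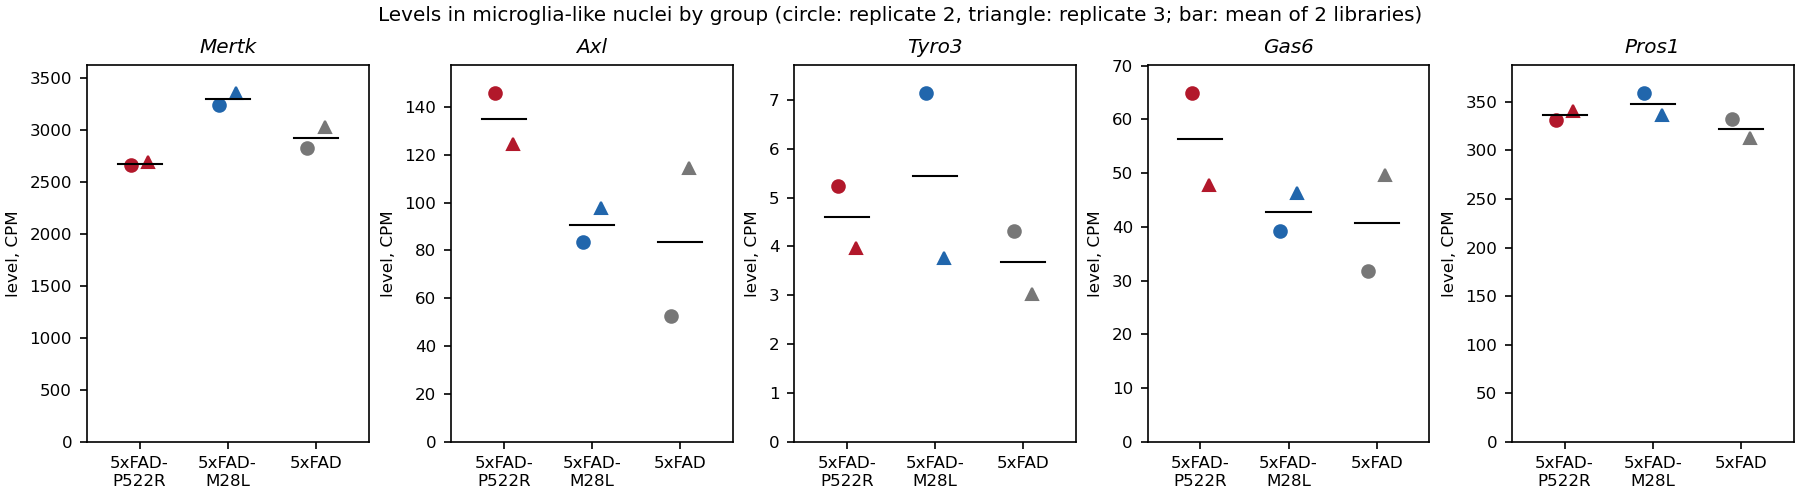
Levels of the 5 members in microglia in CPM (vertical axes, from 0), by group, with 1 point per library (circle for replicate 2, triangle for replicate 3) and a bar at the mean of 2 libraries. Mertk groups do not overlap, with 5xFAD-P522R lowest, whereas the Axl libraries of 5xFAD lie far apart, at 52.6 and 114 CPM.

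The split by sex shows where the 5xFAD libraries parted. In Xist-positive microglia, Axl had 157 and 144 CPM in 5xFAD-P522R, 143 and 127 CPM in 5xFAD-M28L, and 10.6 and 122 CPM in 5xFAD. The low value of 5xFAD replicate 2 came from 13 UMIs. In Y-positive microglia, Axl had 111 and 94.2 CPM in 5xFAD-P522R, 52.1 and 59.3 CPM in 5xFAD-M28L, and 73.9 and 104 CPM in 5xFAD. There both 5xFAD-M28L libraries were lowest, and edgeR gave log2 fold changes of -0.66 (SE 0.188, adjusted p = 0.184) for M28L against 5xFAD and 0.85 (SE 0.1997, adjusted p = 0.0648) for P522R against M28L. In 5 of 6 libraries, all but 5xFAD replicate 2, Axl was higher in Xist-positive than in Y-positive microglia.

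With the Xist-positive nuclei of 5xFAD replicate 2 left out of the microglia, the log2 fold change of Axl was 0.53 for P522R against M28L, -0.06 for M28L against 5xFAD and 0.46 for P522R against 5xFAD, none called. For Mertk in the same order the values were -0.34, 0.17 and -0.17, for Gas6 0.34, 0.08 and 0.42, and for Pros1 -0.09, 0.15 and 0.06, also not called. The difference between Xist-positive and Y-positive microglia in the Mertk contrast of P522R and M28L was -0.09 (SE 0.151, adjusted p = 0.980, edgeR). Its level in 5xFAD-P522R was 2602 and 2663 CPM in Xist-positive and 2692 and 2663 CPM in Y-positive microglia, against 3257 and 3466 CPM and 3233 and 3267 CPM in 5xFAD-M28L.

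**Figure D4:**
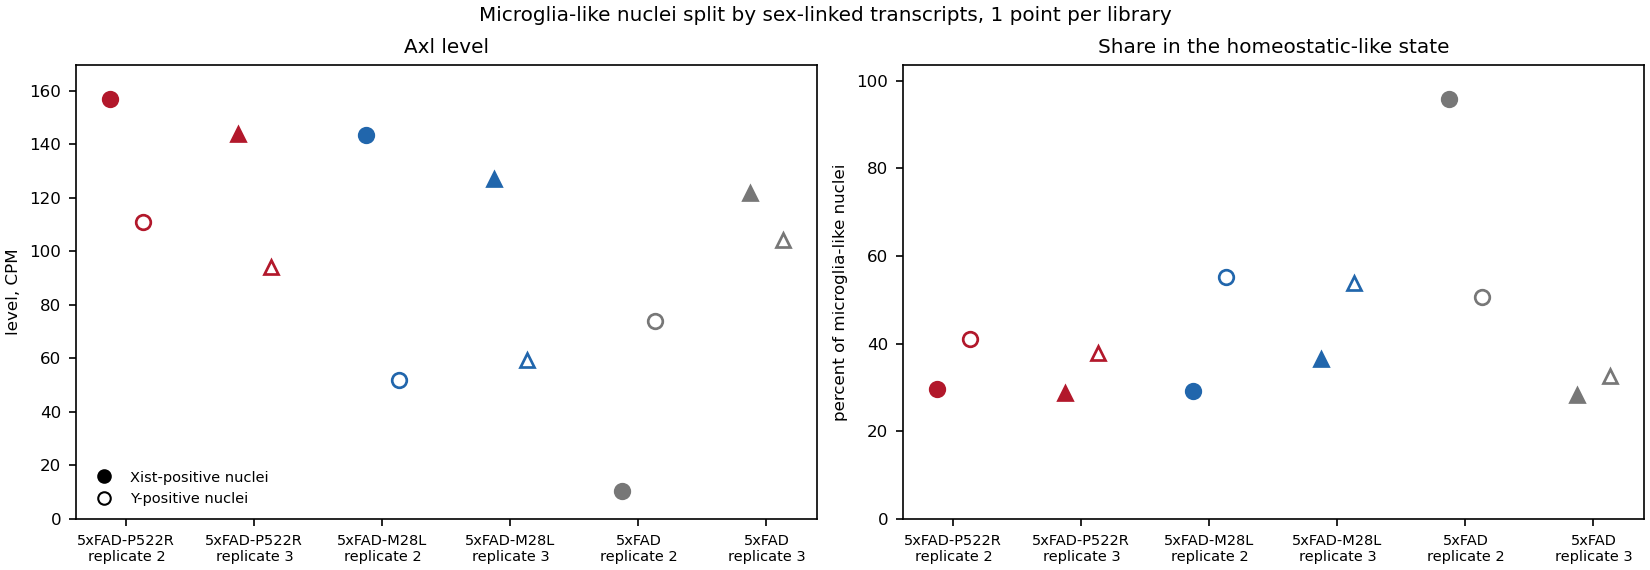
Axl level in CPM (left) and percent of microglia in the homeostatic-like state (right) for Xist-positive (filled) and Y-positive (open) nuclei of each library, both axes from 0. Xist-positive microglia of 5xFAD replicate 2 have 10.6 CPM and a share of 95.8%, while the other 11 points lie between 52.1 and 157 CPM and between 28.3 and 55.2%.

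In astrocytes, the second Mertk-rich type, 0 of 5 members passed in each contrast, where 0% of genes passed for P522R against M28L and for M28L against 5xFAD, and 0.0218% for P522R against 5xFAD (13781 genes). Members with an unadjusted p under 0.05 numbered 1, 2 and 2 in these contrasts, beside 8.73%, 5.08% and 10.7% of all genes, and DESeq2 called 1, 0 and 0. The log2 fold change of Mertk was -0.45 (SE 0.149, adjusted p = 0.524) for P522R against M28L, 0.41 (SE 0.148, adjusted p = 0.912) for M28L against 5xFAD and -0.04 (SE 0.148, adjusted p = 0.953) for P522R against 5xFAD. Both 5xFAD-P522R libraries, at 1802 and 1621 CPM, were below both 5xFAD-M28L libraries, at 1950 and 2397 CPM, which is the order seen in microglia. For P522R against M28L, DESeq2 gave Mertk an adjusted p of 0.0457, with 0.522% of genes called. Without a filter on low counts, edgeR gave adjusted p = 0.0017 for P522R against M28L and 0.031 for M28L against 5xFAD, where 2.05% and 0.8% of genes passed. The 14 microglial markers in astrocytes summed to 138 and 188 CPM in 5xFAD-P522R and 133 and 161 CPM in 5xFAD-M28L.

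Astrocyte Gas6, named after its values were seen, had 47.0 and 57.6 CPM in 5xFAD-P522R, 42.8 and 49.6 CPM in 5xFAD-M28L, and 33.9 and 32.5 CPM in 5xFAD. Both 5xFAD libraries were lowest, with log2 fold changes of 0.54 (SE 0.156, adjusted p = 0.327) for P522R and 0.48 (SE 0.144, adjusted p = 0.912) for M28L against 5xFAD. Oligodendrocyte markers were also higher in 5xFAD-P522R astrocytes, 1406 and 1226 CPM against 671 and 612 CPM in 5xFAD, and their part in the difference was not tested. Oligodendrocytes held 4.36 CPM of Gas6. Astrocyte Axl had log2 fold changes of 0.0019, -0.11 and -0.11 in the 3 contrasts, with SEs up to 0.164.

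In oligodendrocytes 0 of 5 members passed in each contrast, where 0.0129%, 0% and 0.0324% of 15448 genes passed for P522R against M28L, M28L against 5xFAD and P522R against 5xFAD. No member had an unadjusted p under 0.05 there, beside 6.99%, 12.9% and 11.9% of all genes, and DESeq2 called 0. Tyro3 had 98.6 and 85.3 CPM in 5xFAD-P522R, 98.7 and 82.1 CPM in 5xFAD-M28L, and 84.9 and 81.2 CPM in 5xFAD. The 5xFAD-M28L libraries overlapped both other groups, while both 5xFAD-P522R libraries were above both 5xFAD ones by a narrow margin. Its log2 fold changes were -0.003, 0.15 and 0.14 in the 3 contrasts, with SEs of 0.096 to 0.097.

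In the 7 other types together, 0 of 28 pairs of member and type passed in each contrast, where 0.0144%, 0.00433% and 0.0288% of 69342 tests passed in the same order. Pairs with an unadjusted p under 0.05 numbered 2, 4 and 2, beside 5%, 6.75% and 7.83% of all tests. DESeq2 called 0, 0 and 1 pair in the same order. That pair was Pros1 in neurons, singled out after its values were seen, with 21.0 and 28.2 CPM in 5xFAD-P522R, 14.3 and 15.4 CPM in 5xFAD-M28L, and 8.45 and 11.3 CPM in 5xFAD. The groups did not overlap, and the log2 fold change of P522R against 5xFAD was 1.28 (SE 0.199, adjusted p = 0.175), the smallest adjusted p among the members. DESeq2 gave it an adjusted p of 0.000459, with 0.646% of genes called, and edgeR without a filter on low counts one of 4.8e-06, with 2.39%. Microglial markers, whose cells are rich in Pros1, summed to 128 and 495 CPM in neurons of 5xFAD-P522R, 119 and 219 CPM in those of 5xFAD-M28L, and 131 and 186 CPM in those of 5xFAD. Their percentage of microglial Pros1 is 3.03 and 11.6 CPM in 5xFAD-P522R and 3.01 and 3.98 CPM in 5xFAD. The part of microglial RNA in the Pros1 difference was not tested. Neurons of 5xFAD replicate 2 were also the shallowest, at a median of 7830 UMIs, against 13689 UMIs in 5xFAD-P522R replicate 2.

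Mertk in oligodendrocyte precursors, also singled out after its values were seen, had 191 and 239 CPM in 5xFAD-P522R, 270 and 419 CPM in 5xFAD-M28L, and 170 and 286 CPM in 5xFAD. Both 5xFAD-M28L libraries were above both 5xFAD-P522R libraries, and the 5xFAD libraries overlapped both groups. On the log2 scale the difference was -0.72 (SE 0.255, adjusted p = 0.865) for P522R against M28L and 0.59 (SE 0.253, adjusted p = 0.406) for M28L against 5xFAD. Neither passed, but both did without a filter on low counts (adjusted p = 4.9e-17 and 3.5e-12), where 0.45% and 2.92% of genes passed. In Y-positive nuclei P522R against M28L was -0.99 (edgeR, adjusted p = 0.00195), and the share of all genes called in that fit is not given here. These calls thus depended on the setting. Neuronal Tyro3 had 43.2 and 40.3 CPM in 5xFAD-P522R, 47.3 and 36.1 CPM in 5xFAD-M28L, and 33.0 and 31.5 CPM in 5xFAD, with log2 fold changes of 0.33 (adjusted p = 0.4999) for P522R and 0.35 (adjusted p = 0.613) for M28L against 5xFAD.

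Types of the brain's borders and vessels had few nuclei and wide errors. Border macrophages had 41 to 127 nuclei per library, and Mertk there differed by at most 0.04 on the log2 scale with SEs of 0.244 to 0.245, while Axl differed by -0.21 to -0.07 with SEs of 0.309 to 0.327. Their Gas6 had 280 and 217 CPM in 5xFAD-P522R, 242 and 196 CPM in 5xFAD-M28L, and 269 and 107 CPM in 5xFAD, with log2 fold changes of 0.14 to 0.31 and SEs of 0.373 to 0.3804. Pros1 in border macrophages differed by 0.53 (SE 0.325) for P522R against M28L and -0.43 (SE 0.314) for M28L against 5xFAD. Axl in pericytes or smooth muscle had 135 and 139 CPM in 5xFAD-P522R, 212 and 105 CPM in 5xFAD-M28L, and 113 and 114 CPM in 5xFAD. The 5xFAD-M28L libraries lay on both sides of the other 4, and no contrast passed (adjusted p from 0.941 to 0.996).

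In endothelial cells Gas6 had 134 and 80.4 CPM in 5xFAD-P522R, 54.3 and 92.4 CPM in 5xFAD-M28L, and 83.4 and 79.8 CPM in 5xFAD, and the groups overlapped. On the log2 scale the difference was 0.58 (SE 0.347) for P522R against M28L. Endothelial Pros1 was 0.42 (SE 0.276) and endothelial Axl -0.12 (SE 0.463) for P522R against 5xFAD. Fibroblast Axl differed by -0.15 to 0.33 (SEs of 0.265 to 0.303), and Tyro3 in committed oligodendrocyte precursors by -0.12 to -0.03 (SEs of 0.319 to 0.334). All of these endothelial, fibroblast and precursor values had an adjusted p of 0.893 or more.

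**Figure D5:**
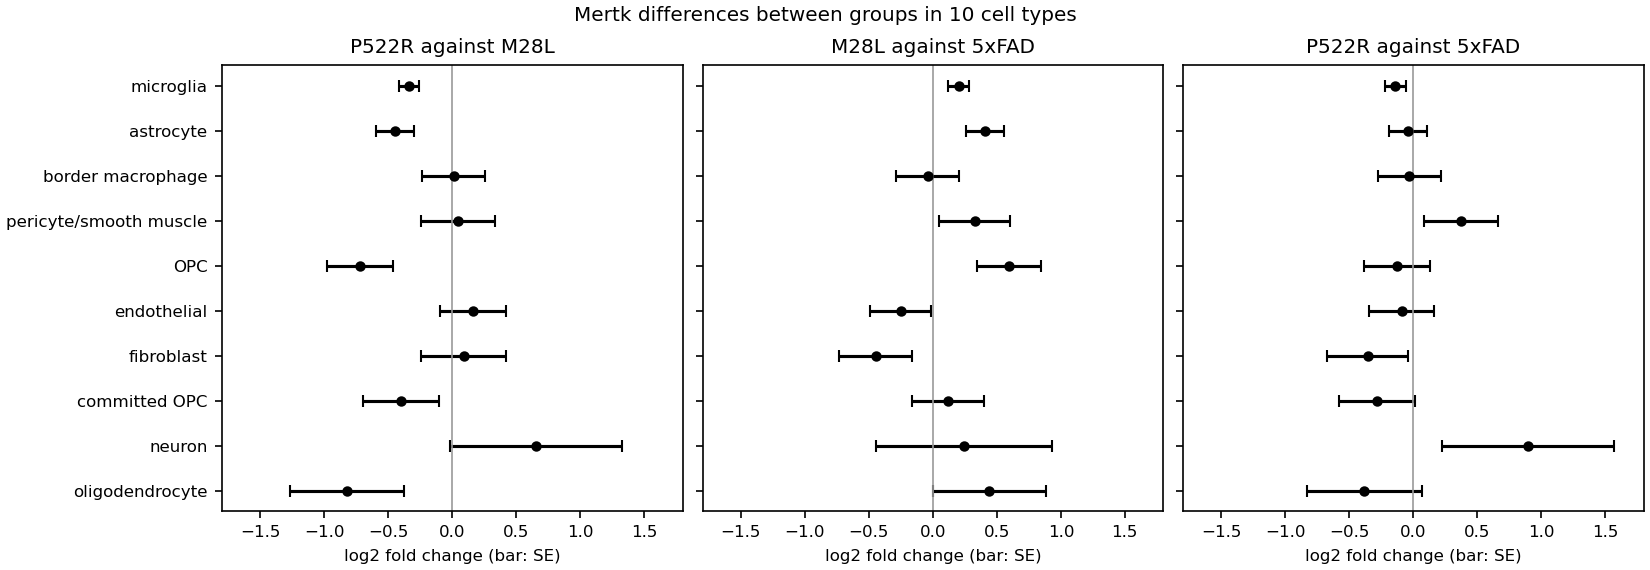
Log2 fold changes of Mertk (horizontal axis, bars of 1 SE) in 10 cell types for the 3 contrasts. Microglia, astrocytes and the 3 oligodendrocyte-lineage types lie below 0 for P522R against M28L and above 0 for M28L against 5xFAD. Neurons, endothelial cells, fibroblasts, pericytes or smooth muscle and border macrophages lie above 0 for P522R against M28L. For M28L against 5xFAD, endothelial cells, fibroblasts and border macrophages lie below 0. No point passed the test.

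In the wider pathway no gene passed either, where few genes of any kind did. The 76 listed genes cover further TAM ligands and adaptors, ligand carboxylation, receptor shedding, signal relay, engulfment, other phosphatidylserine receptors, phosphatidylserine exposure, lipid handling and upstream transcription. Of these, 67 were tested in microglia and 59 in astrocytes, and 0 passed in any of the 6 tests. The shares of all genes that passed were 0.00734%, 0.00734% and 0.022% in microglia for P522R against M28L, M28L against 5xFAD and P522R against 5xFAD. In astrocytes they were 0%, 0% and 0.0218%. In microglia 15, 9 and 7 had an unadjusted p under 0.05 for P522R against M28L, M28L against 5xFAD and P522R against 5xFAD. These are 22.4%, 13.4% and 10.4% of those tested, beside 8.38%, 6.39% and 9.43% of all genes. DESeq2 called 1, 0 and 0 of the list, beside 0.352%, 0.044% and 0.0954% of all genes. In astrocytes the unadjusted numbers were 7, 7 and 11, or 11.9%, 11.9% and 18.6%, beside 8.73%, 5.08% and 10.7% of all genes. DESeq2 called 1, 0 and 2 there, beside 0.522%, 0.0508% and 0.631% of all genes. The median log2 fold change of the list in microglia was -0.037, 0.056 and 0.020 in the 3 contrasts, beside -0.0071, -0.0045 and -0.00057 for all genes, and in astrocytes it was -0.066, 0.060 and 0.017, beside 0.010, -0.0050 and 0.0067.

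The smallest p-values in microglia for P522R against M28L belonged to Lgals3 (galectin-3, a further Mertk ligand), Abca1 (a cholesterol exporter) and Pik3r1 (a regulatory subunit of phosphoinositide 3-kinase). In CPM after TMM scaling, as for all pathway genes here, Lgals3 had 24.6 and 19.1 CPM in 5xFAD-P522R, 6.98 and 5.41 CPM in 5xFAD-M28L, and 5.68 and 15.1 CPM in 5xFAD, a log2 difference of 1.81 (SE 0.393, adjusted p = 0.244) for P522R against M28L. Abca1 was at -0.56 (SE 0.139, adjusted p = 0.331) and Pik3r1 at -0.35 (SE 0.095, adjusted p = 0.381). Lrp1, an engulfment and lipoprotein receptor, had 477 and 420 CPM in 5xFAD-P522R, 406 and 446 CPM in 5xFAD-M28L, and 337 and 316 CPM in 5xFAD. Both variants were above 5xFAD in every library, by 0.46 (SE 0.098, adjusted p = 0.466) for P522R and 0.38 (SE 0.098, adjusted p = 0.773) for M28L.

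For M28L against 5xFAD the next was Abcg1 (another cholesterol exporter, 0.31, adjusted p = 0.773). For P522R against 5xFAD they were Mfge8 (a phosphatidylserine bridge to integrins, -1.39, adjusted p = 0.480) and Timp3 (an inhibitor of receptor-shedding proteases, -1.17, adjusted p = 0.491), both at 3.25 to 11.8 CPM. Both were lowest in 5xFAD-P522R, as were the astrocyte markers in microglia, whose part in them was not tested.

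In astrocytes the 3 smallest p-values for P522R against M28L belonged to Tub (1.54), Vav3 (-0.44) and Itgav (-0.49), each with an adjusted p of 0.524. Elmo1, part of an engulfment signalling complex, had 103 and 81.0 CPM in 5xFAD-P522R, 77.1 and 95.2 CPM in 5xFAD-M28L, and 48.3 and 59.8 CPM in 5xFAD. Both variants were above 5xFAD in every library, by 0.80 (adjusted p = 0.241) for P522R and 0.67 (adjusted p = 0.912) for M28L. Edil3, a phosphatidylserine bridge, was at 0.76 (adjusted p = 0.239) for P522R and 0.50 (adjusted p = 0.912) for M28L against 5xFAD, Lrp1 at 0.35 (adjusted p = 0.912) for M28L, and Dock5 at 0.78 (adjusted p = 0.266) for P522R.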

How the data were processed

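Counts of UMIs per gene and nucleus were deposited by the authors as 10x matrices, made with Cell Ranger 6.1.2 on mm10 per the submitters' processing notes. The file headers give version 6.1.2 in 5 libraries and 5.0.1 in 5xFAD-P522R replicate 3, and whether intronic reads were counted is not given in the sources used here. Barcodes needed 500 UMIs, 300 detected genes and a mitochondrial share of no more than 5% (62651 of 62687 passed), after which 2566 called doublets (Scrublet in scanpy 1.11.5, 1 common threshold, since the automatic one failed in 2 libraries) and 544 nuclei of a microglial cluster rich in them were removed, and the rest were clustered (Leiden, leidenalg 0.10.2, resolution 1, and 0.5 within microglia) without the 5 members, sex-linked and mitochondrial genes. Total UMIs were 53326947 to 72288942 per library.

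Counts were summed per library and type and tested with edgeR 4.0.16 (quasi-likelihood, TMM, filterByExpr with a minimum count of 10, all 6 libraries in 1 fit, no replicate term) in R 4.3.3, adjusted by Benjamini-Hochberg over all genes of a contrast and type, threshold 0.05; edgeR was tested on simulated data. DESeq2 1.42.0, other filters, scalings, clusterings, doublet and sex subsets, a replicate block and leaving out each library were the alternatives. Separate animals are not stated for the libraries, so p-values measure only the spread between them, and any share of nuclei carries counting error only. Fold changes of a member are given in microglia, in types at 25% or more of its highest type, and for Gas6 in astrocytes, Mertk in oligodendrocyte precursors, Pros1 in neurons and Axl in the disease-associated-like state, chosen after their values were seen; pathway genes are the 3 with the smallest p when none passed, of which 1 is not reported here; genes most like a member are the 3 with the highest r among those at 10 CPM or more in a type. Members, gene lists and tests were chosen with earlier results of these data known. Promoters are from RefSeq and matched by symbol for all 5 members, and gene positions are from GENCODE.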

Additional observations from a re-analysis of the deposited data

Results flagged for a closer look

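The log2 fold change of Axl in microglia for M28L against 5xFAD had opposite signs in the sexes, 0.91 in Xist-positive and -0.66 in Y-positive nuclei. These come from a separate fit for each sex. The difference between the sexes was estimated in another fit, of 12 sums of nuclei by library and sex with library as a term, whose value need not equal the difference of those 2. It was 1.89 (SE 0.516, adjusted p = 0.112 over 11760 genes, edgeR quasi-likelihood test), which did not pass, whereas 103 genes did in this contrast. Xist-positive microglia had 143 and 127 CPM in 5xFAD-M28L and 10.6 and 122 CPM in 5xFAD, and Y-positive microglia had 52.1 and 59.3 CPM in 5xFAD-M28L and 73.9 and 104 CPM in 5xFAD. The value thus rests in part on the Xist-positive nuclei of 5xFAD replicate 2. For P522R against 5xFAD the difference was 1.15 (adjusted p = 0.568), and for P522R against M28L it was -0.74 (adjusted p = 0.942).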

How the results depend on the processing

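No member passed in the edgeR fits as reported (all 6 libraries, filter on low counts, no replicate term), some passed under other settings, and the cause was not tested. Without a filter on low counts, members called numbered 2 (P522R against M28L) and 1 (P522R against 5xFAD) in microglia, 1 (P522R against M28L) and 1 (M28L against 5xFAD) in astrocytes, 1 in oligodendrocytes (P522R against M28L) and 1 in the other types in each contrast. Of all genes, 417, 210 and 524 were called in microglia and 467, 182 and 769 in astrocytes in that setting (P522R against M28L, M28L against 5xFAD, P522R against 5xFAD), or 1.89%, 0.95% and 2.37%, and 2.05%, 0.8% and 3.38%. In oligodendrocytes 0.953% passed for P522R against M28L, and in the other types together 0.35%, 0.825% and 1.19% in the 3 contrasts. With only the 4 libraries compared, 2 were called in microglia for P522R against M28L. DESeq2 called 1 in astrocytes (P522R against M28L) and 1 in the other types (P522R against 5xFAD). Y-positive nuclei gave 1 in the other types (P522R against M28L, Mertk in oligodendrocyte precursors). Clusters that the members could shape gave 1 in the disease-associated-like state (P522R against M28L, Mertk, log2 -0.42, edgeR adjusted p = 0.0228). The shares of all genes called in the Y-positive and member-shaped fits are not given here. Leaving out each library gave calls among the members in microglia in the 3 contrasts, all of them without a 5xFAD library. Those fits leave 1 library in that group, and more genes of all kinds were called there too.

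Same-numbered libraries deviated together, with correlations of 0.153 to 0.309 over 13630 genes, but share only a number. The replicate block called 1 member in oligodendrocytes for P522R against M28L and 1 for M28L against 5xFAD (Mertk). In the other types it called 1 in each contrast (edgeR, Mertk in oligodendrocyte precursors, -0.70 and 0.61, adjusted p = 2.5e-06 and 2.4e-06, and Pros1 in neurons, 1.28, adjusted p = 0.0133). Of all genes it called 1.09% and 6.11% in oligodendrocytes for those 2 contrasts. The shares were 0.624% and 6.25% in oligodendrocyte precursors, and 0.861% in neurons for P522R against 5xFAD. The block called 1 pathway gene in microglia for P522R against M28L and 1 for P522R against 5xFAD. In astrocytes it called 2 for P522R against 5xFAD, where 1.37% of all genes were called. It moved the microglial calls over all genes to 99, 38 and 150.

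Pathway genes called without a filter numbered 5, 3 and 6 in microglia and 2, 2 and 3 in astrocytes (P522R against M28L, M28L against 5xFAD, P522R against 5xFAD), of 76 listed, beside the shares of all genes above. DESeq2 called 1 in microglia and 1 in astrocytes for P522R against M28L, and 2 in astrocytes for P522R against 5xFAD. Only the 4 libraries gave 6 in microglia for P522R against M28L, the Xist-positive nuclei of 5xFAD replicate 2 left out gave 1 there, and Y-positive nuclei gave 1 for M28L against 5xFAD. Leaving out each library gave 0 to 6, 0 to 3 and 0 to 9 in microglia, and 0 to 1 in astrocytes for P522R against M28L.

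Of 1236 log2 fold changes under alternatives, 3 reversed, not counting 85 sign changes of values within 1 SE of 0. Pros1 in microglia was 0.022 for P522R against M28L with the same mix of states. Leaving out each library gave -0.14 to 0.87 for Axl in pericytes or smooth muscle (M28L against 5xFAD) and -0.10 to 0.67 for Gas6 in endothelial cells (P522R against 5xFAD).

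Of 275 levels under alternatives, 17 moved by over 1 SD. With doublets kept, Mertk was 2613 CPM in microglia and 198 CPM in fibroblasts, Tyro3 14.5 CPM in microglia and 14.1 CPM in oligodendrocyte precursors, and Pros1 296 CPM in microglia. With members shaping the clusters, Mertk was 2799 CPM and Pros1 314 CPM in the disease-associated-like state, and Axl 56.9 CPM in border macrophages, 6.54 CPM in the homeostatic-like and 133 CPM in the interferon-responsive-like state. With microglia at resolution 1, Mertk was 2783 CPM in the disease-associated-like state, Axl 10.7 CPM in the homeostatic-like and 133 CPM in the interferon-responsive-like state, and Tyro3 3.31 CPM in the last. With cell types at resolution 2, Axl was 67.4 CPM in border macrophages, and Tyro3 6.83 CPM in microglia and 35.1 CPM in committed precursors.

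The sex subsets were not run for committed precursors, endothelial cells, pericytes, fibroblasts, border macrophages and the disease-associated-like state, which had too few nuclei. Member-shaped clusters in the tests, the left-out Xist-positive nuclei, the same mix of states and the test between sexes were chosen after seeing the data. Low counts limit Tyro3 in microglia (129 UMIs) and all members in border macrophages (363 nuclei).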
